A study of Arabidopsis thaliana with 9 samples.

Results

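PDF1.2a and its relatives, with the factors that act on them, were followed as 10 genes chosen by locus identifier out of 33610 in the table. They are the plant defensin genes PDF1.1, PDF1.2a, PDF1.2b, PDF1.2c, PDF1.3 and PDF1.4, the antifungal protein genes HEL and CHI-B, and the transcription factor genes ORA59 and ERF1. The choice was made with earlier results of these libraries known, chiefly the low levels of PDF1.2a, PDF1.2c and HEL in VQ28OE9 against WT, so that comparison is given here as a description. The data are mRNA levels in detached, uninfected rosette leaves of Arabidopsis thaliana at 30 days of age, in 9 libraries. WT is the Col-0 accession, VQ28KO12 is labelled as a knockout line of VQ28, and VQ28OE9 is labelled as an overexpression line of VQ28, with 3 libraries each and 1 line for each altered genotype. The sources used here do not state the promoter of the transgene or the way the knockout was made. Nor do they say whether libraries of 1 genotype are from different plants, so the p-values rest on library spread that may be only technical. VQ28KO12 stands throughout for the libraries so labelled. Their VQ28 mRNA level, given further on, differs between libraries and cannot by itself settle the label.

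Plant defensins are small secreted proteins held together by disulfide bridges, and many of them stop the growth of fungi. In Arabidopsis leaves the PDF1.2 genes are the textbook output of the branch of jasmonate signalling that needs ethylene as well. Its factors ORA59 and ERF1 belong to the AP2/ERF family and bind a short element called the GCC box, while a second branch, led by MYC2, drives wound response genes such as VSP2 and is opposed to the first. HEL, also called PR4, encodes a hevein-like protein that binds chitin, and CHI-B, also called PR3, encodes a basic chitinase that cuts chitin of fungal walls. VQ proteins, which carry a short conserved VQ motif, are cofactors of WRKY transcription factors.

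The coding sequences of PDF1.2a, PDF1.2b, PDF1.2c and PDF1.3 are shown because their likeness bears on how far their counts can be told apart. Each is spliced from 2 coding exons and is 243 bases long, from RefSeq on TAIR10.1. Capitals mark the bases that differ from PDF1.2a at the same position.
PDF1.2a (chr5:17907216-17907550, minus strand): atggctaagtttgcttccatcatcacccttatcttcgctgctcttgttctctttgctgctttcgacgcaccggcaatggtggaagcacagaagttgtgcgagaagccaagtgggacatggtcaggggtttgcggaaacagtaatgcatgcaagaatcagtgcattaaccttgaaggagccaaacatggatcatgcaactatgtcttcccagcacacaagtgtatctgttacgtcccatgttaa
PDF1.2b (chr2:11089281-11089597, plus strand): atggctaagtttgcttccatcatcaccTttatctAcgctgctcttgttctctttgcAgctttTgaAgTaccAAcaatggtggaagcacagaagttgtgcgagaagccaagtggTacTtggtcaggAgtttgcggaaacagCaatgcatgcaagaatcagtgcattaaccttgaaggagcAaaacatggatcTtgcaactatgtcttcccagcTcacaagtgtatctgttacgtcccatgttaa
PDF1.2c (chr5:17909092-17909444, minus strand): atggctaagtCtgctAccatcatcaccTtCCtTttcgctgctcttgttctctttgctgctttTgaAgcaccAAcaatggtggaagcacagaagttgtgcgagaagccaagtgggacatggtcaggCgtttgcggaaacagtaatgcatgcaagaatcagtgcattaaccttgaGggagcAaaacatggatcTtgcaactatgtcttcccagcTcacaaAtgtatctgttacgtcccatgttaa
PDF1.3 (chr2:11087411-11087755, plus strand): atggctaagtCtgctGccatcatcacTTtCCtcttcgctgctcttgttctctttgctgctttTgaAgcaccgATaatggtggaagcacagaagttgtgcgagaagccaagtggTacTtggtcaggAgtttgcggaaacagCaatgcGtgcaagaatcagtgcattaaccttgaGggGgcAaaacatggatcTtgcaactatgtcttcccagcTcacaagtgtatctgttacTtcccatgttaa

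PDF1.2b, PDF1.2c and PDF1.3 differ from PDF1.2a at 15, 16 and 21 bases. Identity within these 4 genes was between 91.4% and 94.7%, and the longest run that any 2 of them share was 72 bases, between PDF1.2b and PDF1.3, against reads of 150 bases. PDF1.1 was 87.7% identical to PDF1.2a, 87.2% to PDF1.2b, 90.1% to PDF1.2c and 90.5% to PDF1.3. PDF1.4 stood further off, at 57.4% to PDF1.2a. Untranslated ends were not compared, and the sources used here do not state how the authors assigned reads that fit several copies. The level of PDF1.1 and the split among the 4 close copies are therefore uncertain. They lie in pairs of neighbours with no listed gene between them. The deposited table, whose build is not named, gives all gene positions except the gene starts used in the motif search. In its coordinates PDF1.2a (AT5G44420, chromosome 5, 17907069 to 17907598, minus strand) lies 1346 bases from PDF1.2c (AT5G44430, 17908945 to 17909507, minus strand). PDF1.3 (AT2G26010, chromosome 2, 11087348 to 11087944, plus strand) lies 1305 bases from PDF1.2b (AT2G26020, 11089250 to 11089597, plus strand).

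A GCC box is the element by which ORA59 and ERF1 are known to act on PDF1.2a. The letters GCCGCC were therefore searched on both strands in the 500 bases before each gene start annotated by RefSeq on TAIR10.1. They were present in 4 of the 10 genes, PDF1.2a, PDF1.2b, HEL and ORA59, each once and on the strand of the gene. Of 27443 protein-coding genes of TAIR10.1, 4.12% hold these letters in a window of that length. In 300 bases it was 3 of the 10 genes and 2.26% of all, because the box of HEL begins 388 bases before its RefSeq start. For PDF1.2a, PDF1.2b, HEL and ORA59 the RefSeq start lies upstream of that in the deposited table. The search window of HEL begins at 1286761, where the deposited table ends this minus-strand gene at 1286562. Distances from the deposited starts are thus longer, and the box of HEL lies more than 500 bases before its deposited start. The search was not run from the deposited starts. The 60 bases around each box are shown to let the flanks be compared, with the box in capitals.
PDF1.2a (chr5:17907828-17907887, minus strand): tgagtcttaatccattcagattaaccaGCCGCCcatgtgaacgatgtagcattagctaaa
PDF1.2b (chr2:11088953-11089012, plus strand): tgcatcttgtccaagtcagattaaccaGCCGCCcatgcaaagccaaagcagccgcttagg
HEL (chr3:1287116-1287175, minus strand): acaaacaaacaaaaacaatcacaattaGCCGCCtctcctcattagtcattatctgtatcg
ORA59 (chr1:1882650-1882709, plus strand): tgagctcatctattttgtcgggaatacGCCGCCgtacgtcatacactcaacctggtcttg

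The box begins 222 bases before the RefSeq start in PDF1.2a, 143 in PDF1.2b and 230 in ORA59. The letters TTGAC, the core of the W box that WRKY factors bind, stood in the 500 bases of 7 of the 10 genes and of 67.4% of all genes. The G box CACGTG, which MYC2 binds, was found in ORA59 of the 10 and in 9.35% of all genes. TGACG, read by TGA factors and sharing the letters TGAC with the W box core, was found in 5 of the 10 and in 32.0% of all. These matches are letters in a window and describe no binding.

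**Figure D1:**
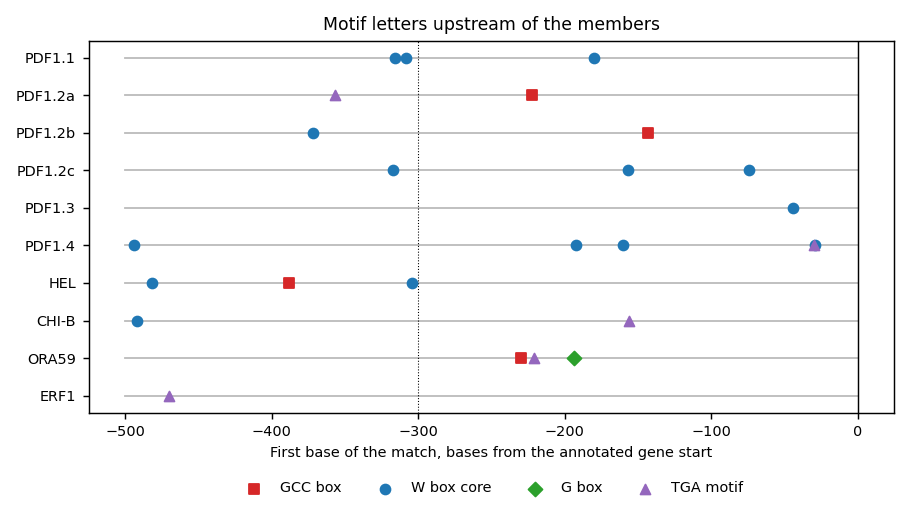
Position of 4 motifs in the 500 bases before the RefSeq start of each of the 10 genes, with the first base of each match in bases from the start (0) and a dotted line 300 bases before the start. The GCC box is seen in PDF1.2a, PDF1.2b, HEL and ORA59.

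The library totals ran from 64552605 to 95223547 units, the whole-number values the authors deposited as counts. About 4 of them are taken here as 1 sequenced fragment, which the sources used here do not state. VQ28 (AT4G20000) stood at 4665 to 6244 FPKM (fragments per kilobase of gene, scaled to library size) in VQ28OE9 and at 0.456 to 8.70 in WT. VQ28KO12 replicates 1 to 3 held 8.36, 10.1 and 0 FPKM of it. Since the way the knockout was made is not stated, these mRNA levels neither bear out nor contradict that label. On the second principal component of the tested genes (17.4% of the variance) WT replicate 3 and VQ28OE9 replicate 3 stood apart, at -25.8 and -30.2, with the others between -3.93 and 17.6. The 4 leaf markers, such as the Rubisco gene RBCS1A, summed to at least 33325 FPKM in every library. The flower markers summed to at most 0.264 FPKM, and 5 of 6 seed markers were at 0 in each genotype. Guard cell markers summed to 13.9 to 15.5 FPKM in WT, 17.0 to 23.5 in VQ28KO12 and 19.7 to 24.0 in VQ28OE9, with 2 of 4 tested members, FAMA and HT1, higher in VQ28OE9 against WT, where 1.37% of all tested genes were. KAT1 had a log2 fold change of -0.23 in that comparison, with no call, and EPF1 was at 0 in WT and VQ28OE9. Vascular markers summed to 253 to 272 FPKM in WT, 219 to 251 in VQ28KO12 and 250 to 296 in VQ28OE9, with no call. The part of guard cell and vascular markers in the results was not tested. In whole leaves, fewer cells of a type and less RNA per cell cannot be told apart.

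Of the 10 genes, 8 had a mean of at least 1 FPKM over the 9 libraries and were tested. PDF1.1 (AT1G75830, chromosome 1, 28472357 to 28472891, plus strand), known mainly from seeds, had 0 units in all 9 libraries. PDF1.3 had a mean of 0.179 FPKM. PDF1.2b was just inside the limit at 1.01 FPKM, and only through WT replicate 2. PDF1.2c and PDF1.4 followed at 1.49 and 1.65.

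PDF1.2a was the most abundant in WT of the PDF1 genes followed here and was nearly absent in VQ28OE9. It stood at 21.0, 33.5 and 6.64 FPKM in WT replicates 1 to 3, at 4.53, 7.23 and 6.93 in VQ28KO12, and at 0, 0 and 0.392 in VQ28OE9. The WT libraries spread widely, WT replicate 3 lay within the range of VQ28KO12, and the 3 VQ28OE9 libraries lay below all others. The means were 20.4 ± 13.4 (SD, n = 3), 6.23 ± 1.48 and 0.131 ± 0.226 FPKM. In units, VQ28OE9 held 14 in all and WT 1876. With units scaled to library size, WT was 150 times higher (95% exact binomial interval 51.0 to 484, for counting error only). All 14 units were in replicate 3; without that library VQ28OE9 was at 0 and at least 56.9-fold lower than WT, on a floor of 3 fragments, or 12 units, in each library.

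PDF1.2c, its neighbour, stood at 4.59, 6.42 and 1.14 FPKM in WT, at 0, 0.374 and 0.893 in VQ28KO12 and at 0 in each VQ28OE9 library. No VQ28KO12 or VQ28OE9 library reached the lowest WT library. On the same floor, and by group totals, PDF1.2c was at least 11.8-fold lower in VQ28OE9 than in WT. PDF1.2b stood at 1.14, 7.11 and 0 FPKM in WT, at 0, 0.416 and 0.266 in VQ28KO12 and at 0, 0 and 0.167 in VQ28OE9. WT replicate 2 held 136 of its 159 WT units, and the other groups held 16 and 4 units. PDF1.3 had 23 and 34 units in WT replicates 1 and 2 and none in the other 7 libraries. WT replicate 3 is among these, so the groups overlapped and no minimum fold is given for this gene, which lies near the limit of detection.

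Summing PDF1.2a, PDF1.2b and PDF1.2c leaves aside which of them a fragment came from. The sum was 841, 1355 and 226 units in WT, 156, 229 and 344 in VQ28KO12 and 0, 0 and 18 in VQ28OE9. Per 1000000 units of the library this was 11.8, 19.9 and 3.50 in WT, 2.03, 3.53 and 3.61 in VQ28KO12 and 0, 0 and 0.233 in VQ28OE9. WT replicate 3 was thus no higher than VQ28KO12 replicates 2 and 3. Of the units of these copies and PDF1.3, PDF1.2a held 75.7% in WT and 90.7% in VQ28KO12. PDF1.2c held 15.6% and 7.13%, over 2479 and 729 units. The difference between the shares was not tested, since units are not whole fragments and the replicates differ.

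**Figure D2:**
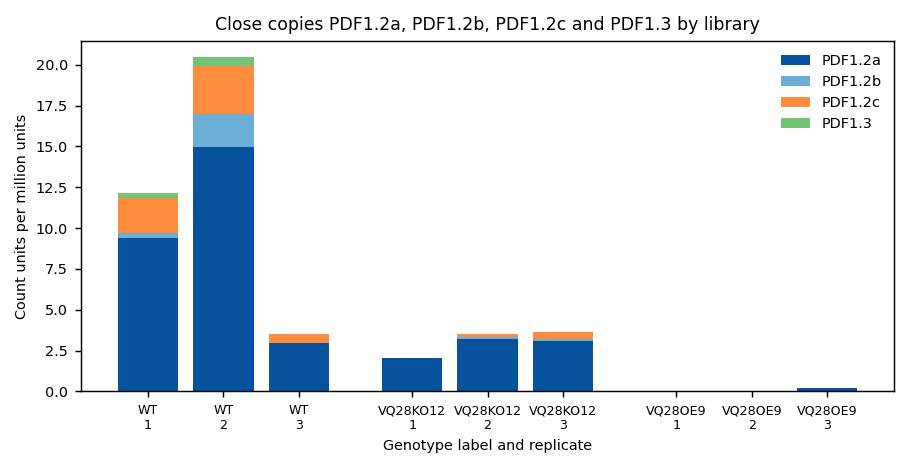
Count units of PDF1.2a, PDF1.2b, PDF1.2c and PDF1.3 in each library, scaled to library size, stacked, by genotype label and replicate. WT replicates 1 and 2 stand above all other libraries, and VQ28OE9 replicates 1 and 2 hold 0 units.

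PDF1.4 (AT1G19610, chromosome 1, 6781483 to 6782039, minus strand), the most distant in sequence, did not share this pattern. It stood at 0.352, 4.78 and 0.125 FPKM in WT, at 0.429, 0.129 and 0.901 in VQ28KO12 and at 1.21, 3.86 and 3.1 in VQ28OE9. WT replicate 2 was the highest library and WT replicate 3 the lowest, so WT spans the others. In WT the same library, replicate 2, was also the highest for PDF1.2a, PDF1.2b, PDF1.2c, PDF1.3, HEL and CHI-B. It is the WT library with the least VQ28, at 0.456 FPKM, and a link between these levels was not tested. VQ28KO12 replicate 3 had 0 FPKM of VQ28 and 6.93 of PDF1.2a, and VQ28KO12 replicate 2 had 10.1 and 7.23.

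HEL (AT3G04720, chromosome 3, 1285524 to 1286562, minus strand) was the most abundant of the 10 genes. It stood at 44.2, 58.8 and 17.2 FPKM in WT, at 15.2, 21.2 and 26.7 in VQ28KO12 and at 11.9, 12.9 and 8.59 in VQ28OE9. All VQ28OE9 libraries lay below all others, while WT replicate 3 lay within VQ28KO12, as for PDF1.2a. The means were 40.1 ± 21.1, 21.1 ± 5.76 and 11.1 ± 2.25 FPKM (SD, n = 3), and the fitted log2 fold change of VQ28OE9 against WT was -1.87 ± 0.39 (SE).

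CHI-B (AT3G12500, chromosome 3, 3962382 to 3963984, minus strand) varied little. Its levels were 1.91, 2.52 and 2.1 FPKM in WT, 2.33, 1.33 and 1.66 in VQ28KO12 and 1.91, 1.26 and 1.34 in VQ28OE9. The highest VQ28OE9 library lay just below the lowest WT library, and VQ28KO12 overlapped both. The fitted log2 fold change of VQ28OE9 against WT was -0.55 ± 0.29. CHI-B overlaps the long non-coding RNA gene AT3G12502, which had 0 units in all 9 libraries.

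ORA59 (AT1G06160, chromosome 1, 1883004 to 1883934, plus strand), an activator of PDF1.2, was lowest in VQ28OE9 on average and highest in VQ28KO12. It stood at 4.78, 1.95 and 0.614 FPKM in WT, at 2.0, 3.13 and 6.06 in VQ28KO12 and at 1.58, 0.714 and 0.486 in VQ28OE9. WT overlapped both other groups, and every VQ28OE9 library lay below every VQ28KO12 library. Over the 9 libraries the levels of ORA59 and PDF1.2a had a Pearson's r of 0.57 on log2(FPKM + 1), a description across 3 genotypes. They did not keep 1 ratio: WT replicate 3 had 6.64 FPKM of PDF1.2a with 0.614 of ORA59, and VQ28KO12 replicate 3 had 6.93 with 6.06. A link between the levels was not tested.

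ERF1 (AT3G23240, chromosome 3, 8295644 to 8296604, plus strand), the other activator, was highest in VQ28OE9. Its levels were 3.82, 2.82 and 1.33 FPKM in WT, 3.2, 2.78 and 3.56 in VQ28KO12 and 8.53, 4.38 and 2.82 in VQ28OE9. VQ28OE9 replicate 3 lay within the range of the other groups. The means were 2.66 ± 1.26, 3.18 ± 0.392 and 5.25 ± 2.95 FPKM (SD, n = 3), and the VQ28OE9 libraries with no PDF1.2a, replicates 1 and 2, lay above every WT library in ERF1.

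**Figure D3:**
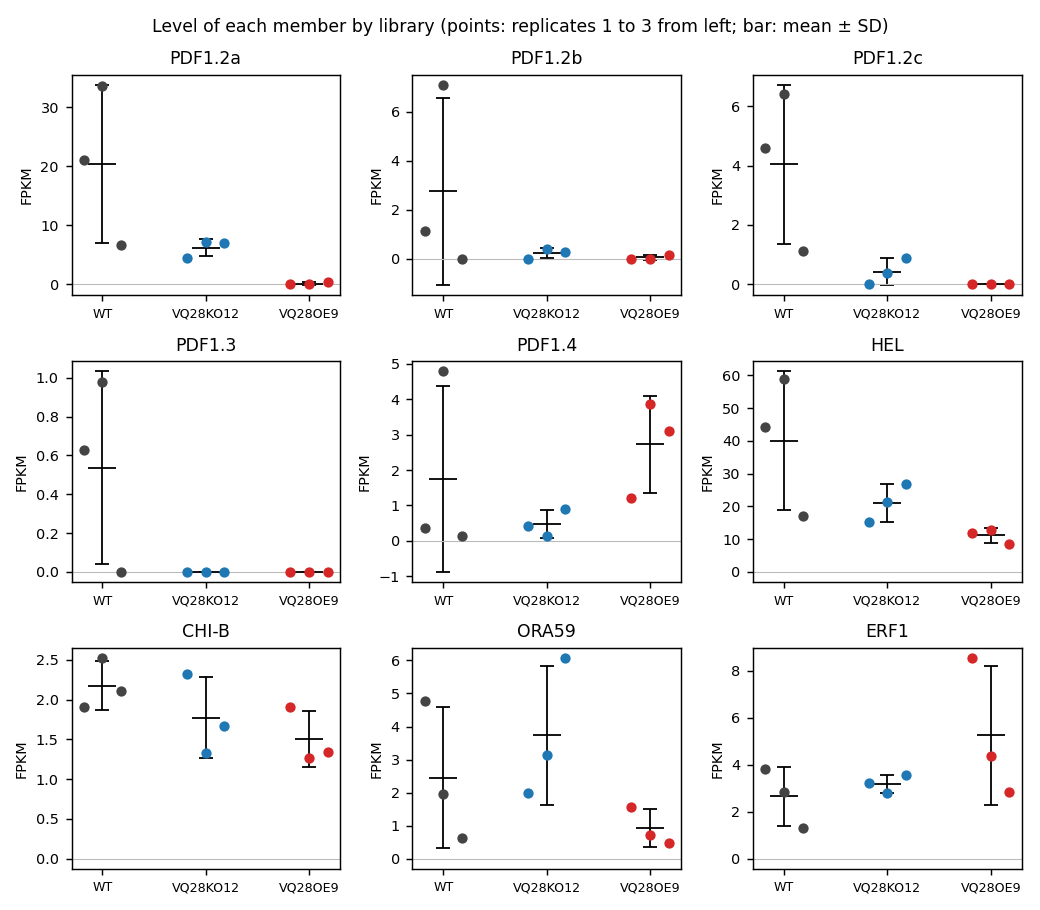
FPKM of 9 of the 10 genes in each library, replicates 1 to 3 from left to right, with the mean and SD as bars; PDF1.1, at 0 throughout, is not drawn. In PDF1.2a and HEL the 3 VQ28OE9 libraries lie below the others, and in ERF1 and PDF1.4 they do not.

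In WT, by level per length, HEL (40.1 FPKM) and PDF1.2a (20.4) came first, followed by PDF1.2c (4.05), PDF1.2b (2.75), ERF1 (2.66), ORA59 (2.45), CHI-B (2.18), PDF1.4 (1.75), PDF1.3 (0.537) and PDF1.1 (0). HEL and PDF1.2a overlapped in their libraries, and from PDF1.2c to PDF1.3 each neighbour in this order lay within the spread of the next. In VQ28OE9 the order was HEL (11.1), ERF1 (5.25), PDF1.4 (2.72), CHI-B (1.5), ORA59 (0.925) and then the other defensins, none above 0.131.

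In VQ28OE9 against WT, 3 of the 8 tested genes passed an adjusted p of 0.05 by edgeR, PDF1.2a, PDF1.2c and HEL, all lower, where 2.31% of the 16050 tested genes passed 0.935% as lower and 1.37% as higher. By DESeq2 the same 3 passed, where 8.47% of all genes did. Nothing is read from this count, since the genes were chosen on it. The tested genes had a median log2 fold change of -1.64, against 0.00 over all genes tested. Nothing is read from this median or from the overlap given next, for the same reason. VQ28OE9 and WT libraries did not overlap in 4 of the 8, PDF1.2a, PDF1.2c, HEL and CHI-B, all lower, against 9.24% of genes that were lower without overlap. Without VQ28OE9 replicate 1 none passed, HEL passed of the single libraries left out only without WT replicate 3, and PDF1.2c only without VQ28KO12 replicate 1. Without WT replicate 3 and VQ28OE9 replicate 3, which stood apart, 2 passed, PDF1.2a and HEL.

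The comparison of VQ28KO12 with WT asks whether these genes also differ in the line labelled as a knockout; it shares its WT libraries with the comparison above. None of the 8 passed by edgeR, where 0.00623% of all tested genes did, and none passed by limma or by DESeq2, where 0.243% did. At an unadjusted p under 0.05, 4 of the 8 were lower, PDF1.2a, PDF1.2b, PDF1.2c and HEL, against 5.03% of all genes in either direction. Nothing is read from this count: the first 3 are close copies, PDF1.2b and PDF1.2c reached the tested level only through WT, and the WT libraries served the choice of the genes. PDF1.2a had a log2 fold change of -1.74 ± 0.70 (SE; adjusted p = 0.982 by edgeR), and HEL one of -0.96 ± 0.38 (adjusted p = 0.982). The copies PDF1.2a, PDF1.2b and PDF1.2c summed had -1.98 ± 0.75 (0.985). PDF1.2c alone did not overlap, with all 3 VQ28KO12 libraries lower, where 2.76% of genes were lower without overlap. By edgeR its log2 change was -3.19 ± 1.04 (adjusted p = 0.943), and this too is a description, since PDF1.2c was tested only through its WT level. PDF1.2b had 0, 8 and 8 units in VQ28KO12, all under the floor of 12, and without WT replicate 2 its WT libraries held 23 and 0, so no fold is given. ORA59 (0.59 ± 0.69) and ERF1 (0.22 ± 0.44) lay on the other side of 0, and both changed sign without a single library, VQ28KO12 replicate 3 and WT replicate 3, with values of -0.00038 and -0.09. CHI-B stood at -0.34 ± 0.29. PDF1.4 stood at -1.83 ± 1.11 and turned to 0.93 without WT replicate 2.

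VQ28OE9 against VQ28KO12 sets the altered lines against each other without WT, but uses the same VQ28OE9 libraries on which the genes were chosen. PDF1.2a was lower in VQ28OE9, with 14 units against 661, and lower in 3 of 3 libraries (edgeR adjusted p = 0.0161). With units scaled to library size it was 44.8 times lower (counting interval 14.8 to 143). The 14 units were all in replicate 3, and without it PDF1.2a was at least 17.0-fold lower (adjusted p = 0.0189). It was the only 1 of the 8 that passed, where 6.33% of the 16050 genes passed 2.62% as lower and 3.71% as higher. By DESeq2 3 of the 8 passed, where 12.2% of all genes did. The 3 copies summed passed as well (adjusted p = 0.0204). The call for PDF1.2a was lost without VQ28KO12 replicate 1 (adjusted p = 0.0504) or replicate 3 (0.0557). Its log2 fold change ran from -10.7 to -2.67 in the 20 alternatives run for it. These include 1 without VQ28KO12 replicates 1 and 2, which held VQ28 mRNA, where 1 VQ28KO12 library remains. HEL stood at -0.91 ± 0.39 on the log2 scale (edgeR adjusted p = 0.211) with 3 of 3 libraries lower. ORA59 had -2.0 ± 0.73 (adjusted p = 0.145), again with 3 of 3 lower, and passed by DESeq2 (0.0283). PDF1.2c had 0 units in VQ28OE9 against 52 in VQ28KO12, whose replicate 1 was also at 0, so no minimum fold is given. It did not pass by edgeR (adjusted p = 0.129) and did by DESeq2 (0.0268). PDF1.4 was the 1 gene with all VQ28OE9 libraries higher (2.43 ± 1.11, adjusted p = 0.246). ERF1 (0.74 ± 0.44) and CHI-B (-0.21 ± 0.29) overlapped, as did PDF1.2b, with 4 units against 16. Groups did not overlap in 3 of the 8 as lower and in 1 as higher, against 14.4% and 12.1% of all tested genes.

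The other defensin genes were not among the 10, though the list was drawn up with earlier results known. Of 9 listed, 2 were expressed enough to be tested, PDF2.2 and PDF2.3, which belong to a defensin type known to be made without infection; PDF1.5, PDF2.4, PDF2.5 and PDF2.6 were at 0 in all 3 genotypes. PDF2.3 (AT2G02130, chromosome 2, 539999 to 540634, plus strand) stood at 31.9, 48.2 and 38.8 FPKM in WT, at 36.5, 30.9 and 40.1 in VQ28KO12 and at 16.9, 22.3 and 15.7 in VQ28OE9. VQ28OE9 was below all other libraries, and VQ28KO12 and WT overlapped. PDF2.3 fell in VQ28OE9 against WT (log2 fold change -1.14 ± 0.19, edgeR adjusted p = 0.0234) and against VQ28KO12 (-0.95 ± 0.19, 0.0228). The call against WT was lost without WT replicate 2 (adjusted p = 0.0527) or 3 (0.0601), without VQ28OE9 replicate 1 (0.0940) or 3 (0.0561), and without WT replicate 3 and VQ28OE9 replicate 3 together (0.102). The call against VQ28KO12 was lost without VQ28KO12 replicate 1 or 3, VQ28OE9 replicate 1 or 3, or WT and VQ28OE9 replicates 3 together. Its log2 fold change there ran from -1.16 to -0.83 over the 21 alternatives.

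PDF2.2 (AT2G02100, chromosome 2, 528350 to 529108, plus strand) stood at 5.13, 7.26 and 11.2 FPKM in WT, at 8.55, 11.7 and 8.87 in VQ28KO12 and at 2.67, 2.45 and 3.76 in VQ28OE9. Again all VQ28OE9 libraries lay below the others. It fell against VQ28KO12 (-1.67 ± 0.33, adjusted p = 0.0205) and did not pass against WT (-1.43 ± 0.32, edgeR adjusted p = 0.0540), though it did by DESeq2 (0.00108). The call against VQ28KO12 was lost without VQ28KO12 replicate 1 or 3 or without VQ28OE9 replicate 1 or 2, with adjusted p = 0.0603, 0.0628, 0.0703 and 0.0627, and with 0.144 without VQ28KO12 replicates 1 and 2 together. In neither gene did VQ28KO12 differ detectably from WT. The median of these 2 genes was -1.28 in VQ28OE9 against WT.

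Ethylene is sensed by receptors that act through EIN2 on the factors EIN3 and EIL1, which stand above ERF1 and ORA59. Of 12 genes of ethylene perception and signalling, all tested, 1 fell in VQ28OE9 against WT and none rose by edgeR, where 0.935% and 1.37% of all tested genes did. By DESeq2 2 fell, ERS1 and EIL1, and between the lines ERS1 and ETR2 were lower in VQ28OE9. The gene that fell by edgeR was ERS1, a receptor gene, at 8.84 ± 1.16 FPKM against 13.1 ± 1.31 in WT (log2 fold change -0.59 ± 0.13, edgeR adjusted p = 0.0482) and 12.9 ± 1.29 in VQ28KO12 (-0.52 ± 0.13, 0.0412). Both calls are near the threshold: 4 of 21 alternatives kept the first and 7 of 21 the second, with adjusted p up to 0.212 and 0.270, and leaving out any single library of the 9 ended the first. The list median was -0.15 in VQ28OE9 against WT, 0.00 in VQ28KO12 against WT and -0.22 between the lines, against 0.00, 0.00 and -0.01 over all tested genes.

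Other factors of the ERF family gave no call by edgeR against WT. Of 9 tested activators, 8 had a positive log2 fold change in VQ28OE9 against WT (median 0.57), and none passed. At an unadjusted p under 0.05, 2 were higher and 1 lower there, and none in VQ28KO12 against WT. Of all tested genes, 17.4% had such a p in VQ28OE9 against WT and 5.03% in VQ28KO12 against WT, in either direction. The exception was ERF15, at 8.00 ± 2.39 FPKM against 16.7 ± 4.37 (-1.08 ± 0.30, edgeR adjusted p = 0.0911), the 1 activator that passed by DESeq2 against WT. Between the lines no activator passed by edgeR. DESeq2 called ERF105 and ERF13 higher and ERF15 lower in VQ28OE9 there, where 12.2% of all genes passed. ERF repressors, which bind the same box and lower transcription, had 6 tested members and no edgeR call in either line against WT, with 2 higher in VQ28OE9 and 1 in VQ28KO12 at an unadjusted p under 0.05. Between the lines DESeq2 called ERF11 higher and ERF9 lower in VQ28OE9. ERF9, a repressor that is known to act on PDF1.2, stood at 4.31, 4.18 and 4.57 FPKM in WT, at 8.16, 6.69 and 10.3 in VQ28KO12 and at 4.04, 3.85 and 3.27 in VQ28OE9. All VQ28KO12 libraries lay above all others, and VQ28OE9 lay below WT. ERF9 was lower in VQ28OE9 than in VQ28KO12 (-1.15 ± 0.20, edgeR adjusted p = 0.0144). For VQ28KO12 against WT it did not pass by edgeR (0.90 ± 0.20, adjusted p = 0.749), and it did by DESeq2 (0.0186). The call between the lines was lost without VQ28KO12 replicate 1 (0.0541) or 3 (0.0522), or without its replicates 1 and 2 (0.0522).

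On the jasmonate side, 12 genes of perception and regulation were tested. None passed by edgeR in either line against WT, where 1 was lower in VQ28OE9 at an unadjusted p under 0.05 and none in VQ28KO12. That gene was MYC4, a partner of MYC2, which did not pass against WT by edgeR (-0.77 ± 0.20, adjusted p = 0.0725) and did by DESeq2 (0.00846). Between the lines DESeq2 called MYC4 and TPL lower in VQ28OE9. MYC4 was lower in VQ28OE9 than in VQ28KO12, at 3.44 ± 0.662 against 7.41 ± 1.90 FPKM (-1.08 ± 0.20, edgeR adjusted p = 0.0168), with 5.78 ± 0.565 in WT. That call was lost without VQ28KO12 replicate 1 (0.0616) or 3 (0.0577), without VQ28OE9 replicate 1 (0.0622), and without VQ28KO12 replicates 1 and 2 (0.0964). Of the MYC2 branch outputs 6 were tested, VSP1, VSP2, LOX2, TAT3, CORI3 and JR1. None passed by edgeR in any comparison. Of all tested genes, 17.4% had an unadjusted p under 0.05 in VQ28OE9 against WT, 5.03% in VQ28KO12 against WT and 21.2% between the lines. At that level 3 of the 6 outputs were lower in VQ28OE9 and 1 in VQ28KO12 against WT, and none differed between the lines. DESeq2 called 1, TAT3, lower in VQ28OE9 against WT. All 6 had negative log2 fold changes against WT in both lines, with medians of -0.52 in VQ28OE9 and -0.50 in VQ28KO12, which share the WT libraries, and the median between the lines was -0.03. VSP2 stood at 759 ± 146 FPKM in WT, 581 ± 233 in VQ28KO12 and 645 ± 273 in VQ28OE9. THI2.1, a thionin gene too low to be tested, stood at 0.551 ± 0.384 FPKM in WT and 0.105 ± 0.182 in VQ28KO12 and was at 0 in VQ28OE9.

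Salicylic acid is known to hold PDF1.2 down through NPR1, TGA factors and the glutaredoxin GRX480. Of 9 such regulators 8 were tested, and none passed by edgeR in either line against WT. At an unadjusted p under 0.05, 1 was higher in VQ28OE9 and 1 lower in VQ28KO12, where 17.4% and 5.03% of all tested genes were, in either direction. WRKY62 did not pass in VQ28OE9 against WT by edgeR (0.96 ± 0.25, adjusted p = 0.0806) and did by DESeq2 (0.00896). It was higher in VQ28OE9 than in VQ28KO12, at 15.3 ± 2.34 against 7.57 ± 1.48 FPKM (1.05 ± 0.25, edgeR adjusted p = 0.0404), with 7.76 ± 2.64 in WT. It passed in 13 of 21 alternatives, with log2 fold changes from 0.90 to 1.21. Leaving out WT replicate 1, VQ28KO12 replicate 1 or 3, or any VQ28OE9 library ended the call. So did leaving out WT and VQ28OE9 replicates 3 together. The list median was 0.05 in VQ28OE9 against WT and 0.34 between the lines. GRX480 stood at 109 ± 27.9 FPKM in WT, 69.6 ± 0.702 in VQ28KO12 and 94.4 ± 9.47 in VQ28OE9, with no call.

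**Figure D4:**
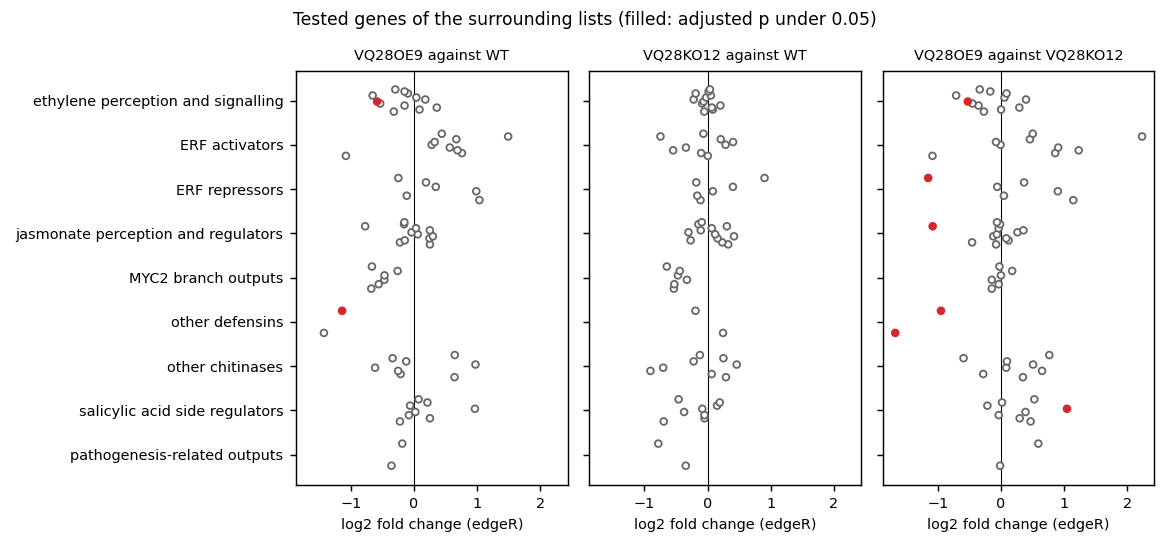
Fitted log2 fold changes (horizontal axis) of the tested genes in 9 lists around the 10 genes, in 3 comparisons; filled red points have an edgeR adjusted p under 0.05. The filled points are PDF2.3 and ERS1 in VQ28OE9 against WT, and PDF2.2, PDF2.3, ERS1, ERF9, MYC4 and WRKY62 between the lines.

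Genes with the pattern most like that of PDF1.2a over the 9 libraries were sought among 10602 genes with a mean of at least 5 FPKM, by Pearson's r of log2(FPKM + 1). They were AT3G18295, a gene of unknown function (r = 0.96), CYP71A13, an enzyme gene of camalexin synthesis (0.96), ASA1, which encodes the entry enzyme of tryptophan synthesis (0.95), AT1G03230, an aspartyl protease gene (0.94), and AT3G01930, a transporter gene (0.94). Of these 5, CYP71A13 had the largest ratio between group means, from 40.9 ± 12 FPKM in WT to 23.8 ± 8.77 in VQ28KO12 and 7.83 ± 2.5 in VQ28OE9. ASA1 went from 141 ± 12.4 to 131 ± 11.9 and 89.6 ± 5.46. For HEL the nearest genes were the peroxidase gene PRXCA (r = 0.92), at 11.9 ± 6.97, 4.16 ± 1.22 and 2.34 ± 0.962 FPKM in the same order, then FOLT1 (0.92), PUT5 (0.91), NAGS2 (0.91) and AT3G18295 (0.91). These values are a description: the 9 libraries fall into 3 genotypes, and the highest of 10602 values was taken.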

How the data were processed

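Poly(A) RNA of 9 leaf libraries was made into dUTP-marked libraries and read as pairs of 150 bases, per the labels' protocols. The authors deposited FPKM values and whole-number counts for 33610 genes, per the file headers. No aligner, counter, build or strand setting is named in the sources used here. Of the deposited counts from 1 to 16, 48.7% to 57.0% were multiples of 4 where 25% would be if spread evenly, so they were treated as estimated counts and called units. The precision of low values is taken to be set by fragments of about 4 units. The floor of 12 units and the counting intervals rest on this assumption. Groups follow the sample titles.

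The 16050 genes with a mean of at least 1 FPKM were fitted together (edgeR 4.0.16, R 4.3.3, TMM, quasi-likelihood, 1 mean per genotype, two-sided), with p-values adjusted by Benjamini-Hochberg over all of them and a threshold of 0.05. Each standard error is the fitted log2 change divided by the root of its F statistic. Alternatives used DESeq2 1.42.0, limma 3.58.1 on log2(FPKM + 1), other filters, a replicate block and single libraries left out. The steps were tested on simulated data. Sequences are from RefSeq on TAIR10.1.

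The 10 genes and the lists were chosen with earlier results of these data known. Named are all 10, up to 3 passing genes of each list, and the 5 genes most like PDF1.2a and HEL. VQ28 is AT4G20000 by the family's published numbers. Proteins were not used here.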

Additional observations from a re-analysis of the deposited data

How the results depend on the processing

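Of 768 fitted changes over the alternatives, 664 kept their direction and their side of the threshold. No call turned its direction. The 6 values that did were uncalled. With libraries left out, CHI-B between the lines ranged from -0.42 to 0.0046 (without VQ28KO12 replicate 1), ERF1 in VQ28KO12 against WT from -0.096 (without WT replicate 3 and VQ28OE9 replicate 3; -0.09 without the former alone) to 0.57, ORA59 there from -0.00038 (without VQ28KO12 replicate 3) to 1.51, PDF1.4 there from -2.67 to 0.93 (without WT replicate 2), and PDF1.4 in VQ28OE9 against WT from -0.060 (without WT replicate 3 and VQ28OE9 replicate 3) to 3.36. Of the 10 genes, 0 passed in VQ28KO12 against WT in any alternative. In VQ28OE9 against WT the count of 3 became 1 with the replicate block and 0 to 2 with a single library left out. The call there was kept in 19 of 20 alternatives for PDF1.2a, in 10 of 20 for PDF1.2c and in 8 of 21 for HEL. Between the lines the count of 1 became 3 by DESeq2, 0 to 1 with a single library left out, and 0 without VQ28KO12 replicates 1 and 2. The cause was not tested.

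Over all genes, 370 passed in VQ28OE9 against WT, 1358 by DESeq2, 163 with only the 6 libraries compared, 94 without WT replicate 3 and VQ28OE9 replicate 3, 166 without VQ28KO12 replicates 1 and 2, and 46 to 337 with 1 library left out. Between the lines 1016 passed, 1957 by DESeq2, 10 without VQ28KO12 replicates 1 and 2, and 131 to 1241 with 1 left out. In VQ28KO12 against WT 1 passed, 39 by DESeq2, 3 by limma on log2(FPKM + 1), 2 with no filter, 2 with the 6 libraries, 3 with counts divided by 4, 5 without VQ28KO12 replicates 1 and 2, and 1 to 4 with 1 left out. The 2 alternatives that leave out 2 libraries were chosen after seeing the data; where 1 VQ28KO12 library remains, it is assumed to vary like the other groups.

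Whether replicate numbers pair the libraries is unclear. Same-numbered libraries had correlations of their deviations from -0.23 to 0.41, and libraries of unlike number from -0.41 to 0.40. The highest was between WT replicate 3 and VQ28OE9 replicate 3. The replicate block gave 468, 1 and 1055 calls in VQ28OE9 against WT, VQ28KO12 against WT and VQ28OE9 against VQ28KO12. Depth limits PDF1.2b, PDF1.2c and PDF1.3, which rest on few fragments outside WT.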

Other observations

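Chitinase genes other than CHI-B, 11 of them with 8 tested, gave no call by edgeR in any comparison. DESeq2 called AT2G43620 higher in VQ28OE9 against WT and AT4G01700 higher between the lines. At an unadjusted p under 0.05, 3 were higher in VQ28OE9 and 2 lower in VQ28KO12 against WT, and 1 was higher and 2 lower between the lines. Of all tested genes, 17.4%, 5.03% and 21.2% had such a p in these comparisons, in either direction. The list medians were -0.17 in VQ28OE9 against WT, -0.03 in VQ28KO12 against WT and 0.22 between the lines. Among outputs of salicylic acid signalling, PR1 was too low to be tested, at 0.388 ± 0.672 FPKM in WT, 0.0210 ± 0.0363 in VQ28KO12 and 2.32 ± 1.85 in VQ28OE9 (SD, n = 3). PR2, which encodes a glucanase, stood at 151 ± 67.2, 90.6 ± 9.46 and 134 ± 67.4 FPKM in that order, and PR5, which encodes a thaumatin-like protein, at 9.85 ± 1.54, 8.00 ± 1.52 and 7.78 ± 0.983, with no call. WRKY51, below the level tested, stood at 0.405 ± 0.354, 0.337 ± 0.159 and 1.38 ± 0.450 FPKM.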
